A study of Homo sapiens with 18 samples.

Results

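Metallothioneins and zinc transporters were followed in human prostate cancer cell lines with constructs meant to raise or lower galectin-4. LGALS4 encodes galectin-4, a protein that recognises galactose-bearing glycans. The 30 genes were 9 metallothioneins (MT1A, MT1E, MT1F, MT1G, MT1H, MT1M, MT1X, MT2A and MT3), the zinc sensor MTF1, 7 zinc exporters of the SLC30 family and 13 zinc importers of the SLC39 family. They were listed by name, with earlier results of these data known. A gene was followed when a probe named for it was detected (p under 0.05) on 3 or more of 18 arrays. This held for 25 of the 30 genes (8 metallothioneins, MTF1, 6 exporters and 10 importers) and for 37 of their 44 probes, among 13680 genes tested in all. The 5 others were MT1A, for which no probe was named, SLC30A10, SLC39A5 and SLC39A13, each detected on 1 array, and SLC39A2, detected on 0 arrays.

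Total RNA was measured on Illumina bead arrays, 3 in each of 6 groups. 22Rv1 and LNCaP are established lines grown from human prostate carcinomas. The groups 22Rv1-tetO-Gal4 and LNCaP-tetO-Gal4 carried a galectin-4 construct behind a doxycycline-responsive promoter and were labelled as control cells. The groups with "+ Dox", the same cells with doxycycline, were labelled as expressing galectin-4. All 4 of these groups thus carried the construct, and none of the 6 groups was given doxycycline without it. 22Rv1-M4 cells carried either a scramble sequence (shCtrl) or a short hairpin against galectin-4 (shGal4), and neither M4 group was labelled as carrying tetO-Gal4. The sources used here give no dose, no time and no derivation of M4.

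Metallothioneins are short, cysteine-rich proteins that hold zinc and copper in clusters and also bind toxic metals such as cadmium. The zinc-sensing factor MTF1 binds metal response elements in the promoters of metallothionein genes and of the exporter gene SLC30A1, so that their transcripts rise when free zinc rises. SLC30 proteins move zinc out of the cytoplasm, across the plasma membrane or into vesicles, and SLC39 proteins move it in. The normal prostate gland is known for its high zinc content, which falls in prostate cancer.

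The 9 metallothionein genes lie in 1 cluster on chromosome 16. RefSeq promoter windows, here the 250 bases before the transcription start in assembly GRCh38.p14, were matched for 22 of the 30 genes. They were searched on both strands for the motif core of the metal response element, spelled TGCACNC and TGCGCNC. Of 35116 promoters of this length, 24.8% held at least 1 match, 0.208% held at least 4 and 5 promoters held at least 8. MT2A held 7 separate matches, MT1H held 8, MT1X held 4 and SLC30A1 held 1. Of the 22 matched genes, which had 30 promoters between them, 11 held at least 1 match in any of their promoters and 11 held 0. This count is by gene and cannot be set against the 24.8%, which is by promoter. No promoter entry was matched for MT1A, MT1E, MT1F, MT1G, MT1M, MT3, SLC39A4 and SLC39A14. The 4 windows shown are those of MT2A, MT1H and MT1X, the only metallothioneins with a promoter entry, and of the exporter SLC30A1. Capitals mark the matches, and matches on the other strand appear as reverse complements.
MT2A, chr16:56608334-56608583, plus strand: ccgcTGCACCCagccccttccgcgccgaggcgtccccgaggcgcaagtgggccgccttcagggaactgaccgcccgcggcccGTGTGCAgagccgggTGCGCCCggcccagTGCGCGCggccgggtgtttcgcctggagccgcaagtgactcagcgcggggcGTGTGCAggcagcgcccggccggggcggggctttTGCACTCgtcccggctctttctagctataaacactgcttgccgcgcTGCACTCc
MT1H, chr16:56669564-56669813, plus strand: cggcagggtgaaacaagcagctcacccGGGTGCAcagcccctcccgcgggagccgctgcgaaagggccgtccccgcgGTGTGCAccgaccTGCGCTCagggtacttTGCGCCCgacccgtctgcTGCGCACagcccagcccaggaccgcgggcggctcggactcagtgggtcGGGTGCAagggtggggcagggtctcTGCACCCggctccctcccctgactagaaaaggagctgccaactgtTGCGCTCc
MT1X, chr16:56682220-56682469, plus strand: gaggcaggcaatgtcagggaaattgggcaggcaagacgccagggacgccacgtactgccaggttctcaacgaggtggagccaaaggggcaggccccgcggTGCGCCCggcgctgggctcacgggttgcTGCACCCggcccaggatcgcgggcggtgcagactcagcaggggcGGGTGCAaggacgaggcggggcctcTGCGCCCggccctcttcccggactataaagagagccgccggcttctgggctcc
SLC30A1, chr1:211579162-211579411, minus strand: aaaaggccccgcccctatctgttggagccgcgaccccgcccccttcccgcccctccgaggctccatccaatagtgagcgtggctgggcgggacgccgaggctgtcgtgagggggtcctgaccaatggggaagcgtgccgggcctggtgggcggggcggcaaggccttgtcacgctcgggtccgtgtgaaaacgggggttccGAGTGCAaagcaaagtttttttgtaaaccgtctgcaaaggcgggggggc
The match nearest to the start began 8 bases before it in MT2A and in MT1H, 53 bases before it in MT1X and 49 bases before it in SLC30A1. A match is a description of these letters only.

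The arrays had mean intensities of 305.6 to 403.5 and detected 41.9% to 45.1% of 47303 probes. Arrays of 1 group correlated with r between 0.976 and 0.996. LGALS4 fell by 7.45 on the log2 scale in the M4 knockdown and rose by 1.92 in LNCaP with Dox (at least 3.41-fold). In the 22Rv1 arrays labelled as Dox it changed by -0.06 (adjusted p = 0.874 by limma), so a direction with respect to galectin-4 cannot be drawn from that comparison, and "22Rv1 with Dox" below means the arrays so labelled. KLK3, the gene of prostate-specific antigen, was detected on 3 of 3 arrays in both LNCaP groups and on 0 arrays in the 22Rv1 and M4 groups. Of 6 prostate luminal markers with a probe, 4 to 6 were detected on all 3 arrays of a group. Of 6 fibroblast markers 1 to 3, and of 4 leukocyte markers 1 or 2, were detected on all 3 arrays of a group. The basal marker KRT5, the fibroblast markers COL3A1 and PDGFRA and the T cell marker CD3E were detected on 0 arrays. The other basal marker with a probe, KRT14, was detected on an array or more of the M4 knockdown alone. COL1A2, a fibroblast marker, was detected on an array or more of LNCaP with Dox and of both M4 groups. The leukocyte marker PTPRC was so in 22Rv1 with Dox alone. Some other markers moved with the groups, and those named here were chosen after their values were seen. DCN, a fibroblast proteoglycan, fell from 6.15 to below background in the knockdown (at least 2.68-fold, adjusted p = 2.35e-08). LUM, another, rose by 1.38 in 22Rv1 with Dox (adjusted p = 0.00194). In the knockdown LUM (0.01, adjusted p = 0.980) and the fibroblast marker COL1A1 (0.18, adjusted p = 0.360) were not called. With Dox in 22Rv1 COL1A1 rose by 0.41 (adjusted p = 0.0311), and DCN was below background in both groups. CD68, a lysosomal protein used as a macrophage marker, rose by 2.05 in 22Rv1 with Dox (adjusted p = 3.22e-04) and fell by 1.11 in the knockdown (adjusted p = 0.0315). CD14, another leukocyte marker, was called in neither (0.22 and -0.18, adjusted p = 0.443 and 0.540). Within groups 24.8% of the variation lay along 1 axis, on which LNCaP arrays scored -14.5 to -3.35 and LNCaP Dox arrays 24.5 to 26.7. Whether replicates came from separate cultures is not said in the labels, and the p-values then measure no more than the spread between these arrays, which may be technical. Levels are from whole cultures, in which fewer cells expressing a gene and less RNA per cell cannot be told apart.

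Values below are normalized log2 intensities of 1 probe per gene, so levels can be set side by side between groups but not between genes. Calls are at p under 0.05 in limma after Benjamini-Hochberg adjustment over the 13680 genes. In the M4 knockdown 16 of the 25 genes were called, 12 lower and 4 higher, where 23.3% of all genes were called (10.3% lower and 13.0% higher). In 22Rv1 with Dox 14 were called, 11 lower and 3 higher, where 24.8% of all genes were called (15.7% lower and 9.14% higher). LNCaP with Dox gave 11 calls, 6 lower and 5 higher, where 27.8% of all genes were called (17.0% lower and 10.9% higher). The 8 metallothioneins had a median log2 change of -4.66 in the knockdown, -1.68 in 22Rv1 with Dox and -0.90 in LNCaP with Dox, against 0.02, -0.06 and -0.08 over all genes tested. With genes at background in 1 group set to their bound, the median in 22Rv1 with Dox was -1.51 and the others did not move. The Dox responses of both lines differed for 6 of the 25 genes, 3 in each direction, where they differed for 18.8% of all genes (9.42% higher and 9.39% lower in 22Rv1 than in LNCaP). The 16 zinc transporters had medians of -0.09, -0.02 and 0.09 in the knockdown, LNCaP and 22Rv1. Among all called genes 55.7% were higher in the knockdown and 36.8% in 22Rv1 with Dox, and with medians scaled instead of quantile normalization 34.9% and 25.3%.

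**Figure D1:**
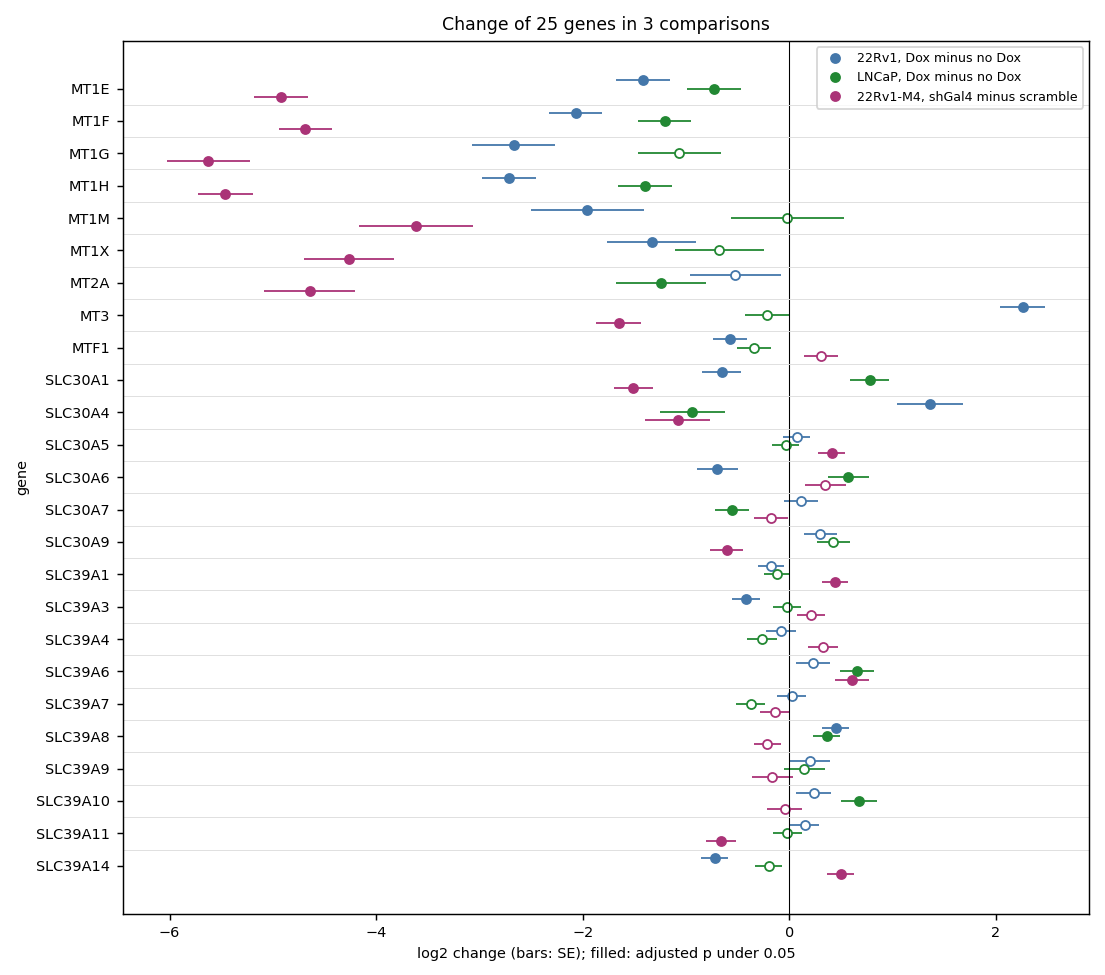
Log2 change (x axis) of each of 25 genes (y axis) in 22Rv1 with Dox, LNCaP with Dox and the M4 knockdown, with bars of 1 SE and filled points at an adjusted p under 0.05. The 8 metallothioneins lie between -5.63 and -1.65 in the knockdown, and all zinc transporters lie between -1.51 and 1.36 in the 3 comparisons.

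In M4 cells all 8 measured metallothioneins fell when galectin-4 was knocked down, by 1.65 to 5.63 on the log2 scale. In the deposited log2 matrix, which has no background correction, all 8 were called too but the falls were smaller, from -0.71 for MT3 to -4.49 for MT1G, with -2.84 for MT1F and -3.56 for MT1H. Each of them was lower on all 3 knockdown arrays than on any scramble array, a separation found for 15.9% of all genes in this direction. MT1G, an inducible member of the MT1 group, stood at 12.21, 12.24 and 11.63 with scramble and at 5.48, 5.63 and 8.09 with the knockdown. Before normalization these were intensities of 4970, 6313 and 3061 against 131, 124 and 376. The third knockdown array was higher than the others of its group but still far below every scramble array. The change was -5.63 (SE 0.40, adjusted p = 1.25e-09), 49.4-fold lower.

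MT2A, a metallothionein expressed in most human tissues, stood at 11.90, 12.02 and 11.63 with scramble and at 6.04, 6.51 and 9.07 with the knockdown. Its change was -4.64 (SE 0.44, adjusted p = 8.26e-08), and again knockdown replicate 3 was the least low array. MT1E, another inducible MT1 gene, stood at 10.69, 10.83 and 10.67 against 5.11, 5.55 and 6.76, a change of -4.92 (SE 0.26, adjusted p = 1.33e-11). Both groups were well apart, and all 3 knockdown arrays were above background.

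For MT1H, values of 10.41, 10.65 and 10.06 with scramble stood against 4.31, 4.54 and 5.90, of which only the last was above background. Its change of -5.46 (SE 0.27, adjusted p = 2.58e-12) had the smallest adjusted p of the 25 genes in this comparison. MT1F showed 9.55, 9.63 and 9.56 against 4.29, 4.57 and 5.83, with 1 of 3 knockdown arrays above background, and changed by -4.69 (SE 0.26, adjusted p = 2.03e-11). The scramble arrays of MT1F lay close together, and its spread lay in the knockdown group. MT1X stood at 9.83, 9.99 and 10.81 against 4.74, 5.46 and 7.64, with 2 of 3 knockdown arrays above background, and changed by -4.26 (SE 0.43, adjusted p = 2.26e-07).

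MT1M was the metallothionein with the most uneven scramble group, at 8.98, 9.33 and 5.50. All 3 knockdown arrays were not well above background (4.32, 4.27 and 4.38), which gives a fall of at least 9.26-fold (adjusted p = 4.58e-05). Without scramble replicate 3 the fitted change went from -3.62 to -4.83. Its probe passed the detection filter through 22Rv1 and M4 scramble arrays alone, so some difference from the other groups follows from the filter.

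The 11851 genes above background on an array or more of each M4 group were ordered from the largest fall in the knockdown. MT1G was 2, MT1H 3, MT1E 4, MT1F 5, MT2A 6 and MT1X 7. Of these, MT1H and MT1F were above background on 1 of 3 knockdown arrays and MT1X on 2 of 3. Their falls and places thus rest partly on levels at background. The summed level of 6 fibroblast markers lay between 7.77 and 8.51 (log2) with scramble and 7.58 and 7.97 with the knockdown. That of 4 leukocyte markers lay between 9.91 and 10.88 and between 9.35 and 9.54. That of 6 prostate luminal markers was higher with the knockdown, between 10.58 and 10.72 against 10.04 and 10.12. The part of these lists in the falls was not tested. The leukocyte sum was mostly CD68 (group means 10.38 and 9.26), and CD14 was not called (adjusted p = 0.540 by limma). Knockdown replicate 3 was the highest of its group for 8 of 8 metallothioneins. The median SD in the knockdown group was 0.86 for metallothioneins, 0.14 for zinc transporters and 0.15 for all genes. Without that array the falls were larger, at -6.47 for MT1G, -5.95 for MT1H, -5.58 for MT2A, -5.40 for MT1E, -5.15 for MT1F and -5.11 for MT1X. LGALS4 on the 3 knockdown arrays stood at 5.32, 4.79 and 4.87, so its highest array was replicate 1 and not replicate 3. Metallothionein genes are alike in sequence, and a probe may read related genes or pseudogenes, which was not tested here. A second MT1H probe was above background on 3 of 18 arrays, all of them 22Rv1 or M4 scramble arrays, through which it passed the filter. Its M4 groups overlapped, at 5.33, 4.99 and 4.29 against 4.36, 4.49 and 4.26, so it gives no separate reading of the fall.

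**Figure D2:**
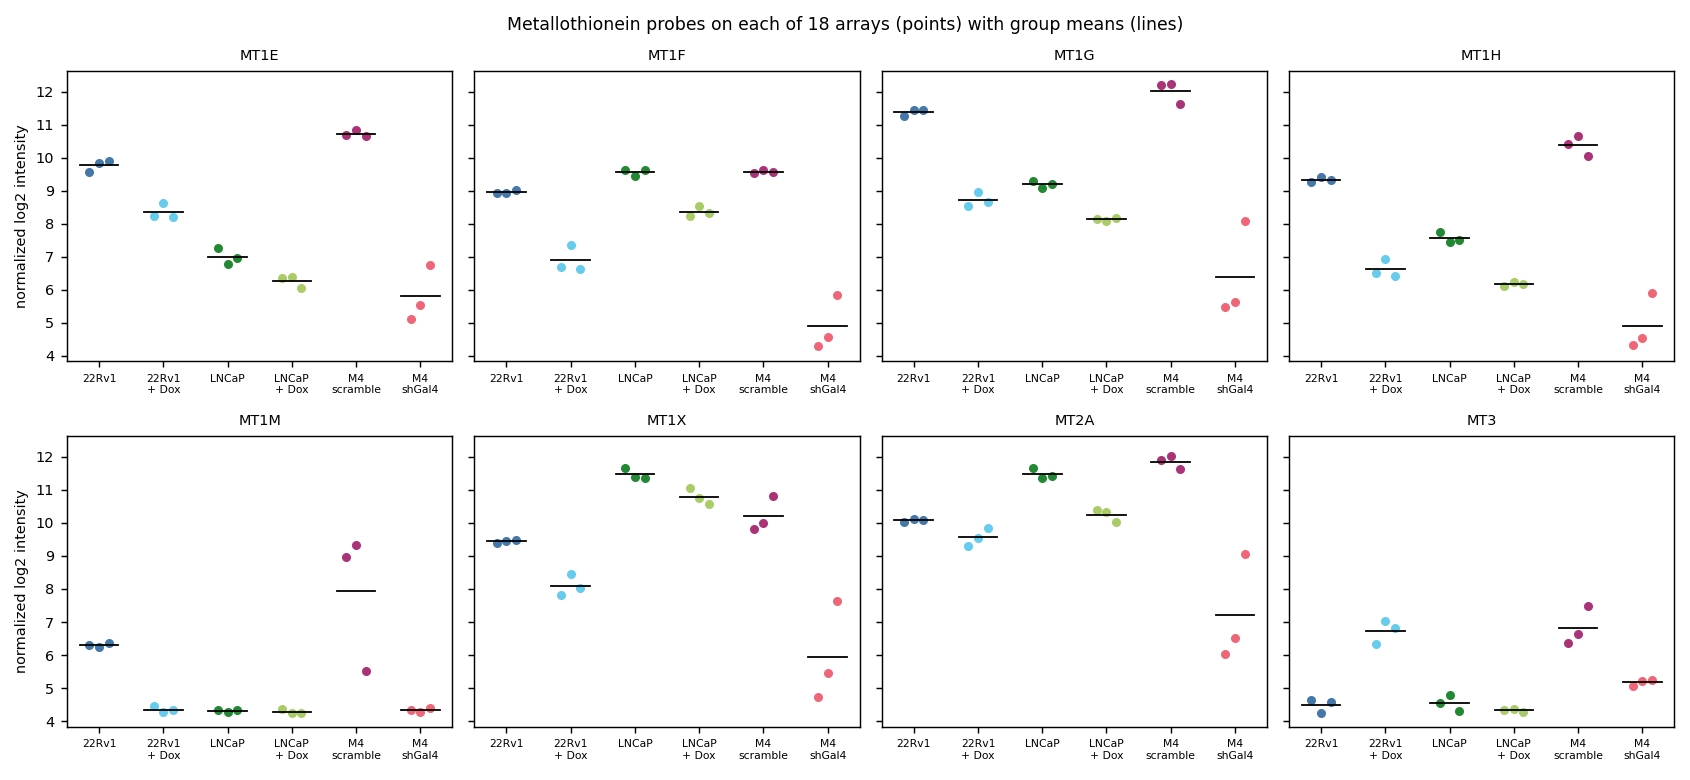
Normalized log2 intensity (y axis) of 8 metallothionein probes on each of 18 arrays (points) in 6 groups (x axis), with group means as lines. In every panel the M4 knockdown points lie below the M4 scramble points, and replicate 3 of the knockdown is the highest of its group.

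In 22Rv1 with Dox 6 of 8 metallothioneins fell, MT3 rose and MT2A was not called. The summed level of the 6 fibroblast markers lay between 7.37 and 7.47 without and 7.71 and 8.20 with Dox, and that of the 4 leukocyte markers between 9.07 and 9.11 and between 10.57 and 11.49. The leukocyte sum was mostly CD68 (group means 8.90 and 10.95), and CD14 was not called (adjusted p = 0.443 by limma). The 6 luminal markers summed to between 10.23 and 10.26 without and 9.00 and 9.26 with Dox. Among them HOXB13, TMPRSS2, FOLH1 and STEAP1 were called lower, KLK2 was called higher by 0.915, and KLK3 was below background. In LNCaP their sum was higher with Dox, between 12.75 and 13.16 against 12.06 and 12.31. The part of these lists in the changes was not tested. MT1H stood at 9.28, 9.42 and 9.32 without Dox and at 6.52, 6.94 and 6.41 with Dox. The change was -2.71 (SE 0.27, adjusted p = 2.07e-07), 6.56-fold lower, while its second probe was not well above background on any Dox array. For MT1G, levels of 11.27, 11.44 and 11.45 stood against 8.52, 8.97 and 8.65, a change of -2.67 (SE 0.40, adjusted p = 5.43e-05). In both genes the Dox arrays lay together, far under the controls. The deposited log2 matrix gave -1.96 for MT1H and -2.44 for MT1G.

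MT1F went from 8.92, 8.94 and 9.02 to 6.70, 7.35 and 6.62, a change of -2.07 (SE 0.26, adjusted p = 5.26e-06). MT1E went from 9.58, 9.83 and 9.90 to 8.24, 8.62 and 8.20, a change of -1.41 (SE 0.26, adjusted p = 4.47e-04). Dox replicate 2 was the highest of its group for 6 of the 8 metallothioneins. MT1M, at 6.29, 6.24 and 6.38 without Dox, was not well above background on any Dox array (4.47, 4.26 and 4.32), a fall of at least 3.03-fold (adjusted p = 0.0118). As in M4, some of this difference follows from the filter, which its probe passed through 22Rv1 without Dox and M4 scramble alone. The call of MT1M was lost in the deposited log2 matrix without background correction (-0.69, adjusted p = 0.234).

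The smallest of the called falls was that of MT1X, from 9.38, 9.45 and 9.49 to 7.82, 8.45 and 8.04. Its change of -1.33 (SE 0.43, adjusted p = 0.0279) was not called when any of 22Rv1 replicates 1, 2 and 3 or Dox replicates 1 and 3 was left out, with adjusted p up to 0.0993. MT2A stood at 10.03, 10.12 and 10.10 without and 9.30, 9.53 and 9.86 with Dox. All 3 Dox arrays were lower than any control, but the change of -0.52 was not called (SE 0.44, adjusted p = 0.428, 95% interval -1.44 to 0.39). The SEs of MT1X and MT2A include the scattered M4 knockdown arrays (SD 1.51 and 1.63). For MT2A the 22Rv1 groups had SDs of 0.05 without and 0.28 with Dox. Under the alternatives the count of called metallothioneins went up to 8, MT2A among them.

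LNCaP cells with Dox had lower levels of 4 of 8 metallothioneins, and none was called higher. MT1H went from 7.74, 7.44 and 7.52 to 6.10, 6.23 and 6.17, a change of -1.40 (SE 0.27, adjusted p = 9.50e-04), with its second probe below background in both groups. MT1F went from 9.63, 9.45 and 9.63 to 8.23, 8.54 and 8.32, a change of -1.21 (SE 0.26, adjusted p = 0.00211). In both genes every Dox array was clearly below every control. MT1H gave -0.79 in the deposited log2 matrix (adjusted p = 9.18e-04).

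Smaller margins were seen for MT2A and MT1E. MT2A changed by -1.24 (SE 0.44, adjusted p = 0.0393), from 11.66, 11.38 and 11.44 to 10.38, 10.32 and 10.04, and it was not called when any of the 6 arrays was left out. MT1E changed by -0.73 (SE 0.26, adjusted p = 0.0430), from 7.26, 6.76 and 6.95 to 6.35, 6.37 and 6.06. It was not called without LNCaP replicates 1 or 3 or any Dox replicate. MT1G stood at 9.30, 9.10 and 9.21 against 8.13, 8.09 and 8.19, fully apart, but its change of -1.06 had an adjusted p of 0.0531 (SE 0.40). That SE, like the SE of MT2A, includes the scattered M4 knockdown arrays. In a fit to the 6 LNCaP arrays alone the MT1G change had an adjusted p of 3.07e-04.

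MT1X in LNCaP stood at 11.68, 11.38 and 11.36 without and 11.07, 10.75 and 10.57 with Dox, a difference of -0.68 (SE 0.43, adjusted p = 0.265, and 0.0104 in the fit to the LNCaP arrays alone). MT1M was not well above background on any LNCaP array. The LNCaP groups also lay apart on the within-group axis, which was added to the fit as a covariate. Axis and Dox can hardly be separated in this comparison, so lost calls do not tell whether the axis had a part in these falls. This fit left 243 genes called in this comparison and 0 of the 25 genes described here. MT1F then had -1.31 (adjusted p = 0.0723) and MT1H -1.26 (adjusted p = 0.0925), close to their first values, and MT2A had -0.57 (adjusted p = 0.673).

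The 3 comparisons share no arrays. MT1E, MT1F and MT1H were called lower in each of them, 3 of 25 genes, where 39 of 13680 genes (0.285%) were. MT1G was lower on every array in all 3 and missed the threshold in LNCaP alone. LGALS4 was lower in the knockdown, higher in LNCaP with Dox and not detectably changed in 22Rv1 with Dox.

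MT3, a metallothionein best known from the brain, where it inhibits neuronal growth, did not follow the others. In 22Rv1 it was not well above background without Dox (4.62, 4.23 and 4.58) and stood at 6.34, 7.04 and 6.83 with Dox, a rise of at least 4.14-fold (adjusted p = 1.74e-07). All 3 Dox arrays were above background and above every control. LNCaP arrays stood at 4.53, 4.80 and 4.29 without and 4.32, 4.38 and 4.28 with Dox, of which 1 was above background. In M4 cells MT3 stood at 6.36, 6.64 and 7.48 with scramble and 5.07, 5.20 and 5.24 with the knockdown, which is a difference of -1.65 (SE 0.22, adjusted p = 8.19e-06). The fitted difference between the Dox responses of the lines, 2.47 (adjusted p = 1.03e-05), rests on 2 groups with 0 of 3 arrays above background and has no exact size. It was 0.95 in the deposited log2 matrix, where the rise in 22Rv1 was 0.87 (adjusted p = 1.57e-04).

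MTF1, the zinc-sensing transcription factor, was called in 1 of the 3 comparisons. It stood at 6.66, 6.54 and 6.50 in 22Rv1 and 5.90, 5.84 and 6.23 with Dox, a fall of 0.58 (SE 0.16, adjusted p = 0.0131) with no overlap of arrays. The call was lost without 22Rv1 replicate 1 or Dox replicates 1 or 2 (adjusted p up to 0.0608). In LNCaP, levels of 6.35, 6.26 and 6.48 stood against 6.16, 5.82 and 6.09 with Dox, a difference of -0.34 (adjusted p = 0.131). The M4 groups overlapped, at 6.25, 6.33 and 5.59 with scramble and 6.34, 6.44 and 6.31 with the knockdown, a difference of 0.31 (adjusted p = 0.190, 95% interval -0.04 to 0.65).

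SLC30A1, the exporter of the plasma membrane, fell with the metallothioneins in M4 cells and in 22Rv1, and rose in LNCaP. Its levels in M4 were 6.67, 6.63 and 6.41 with scramble and 5.00, 5.06 and 5.10 with the knockdown, which is a difference of -1.51 (SE 0.19, adjusted p = 3.98e-06). The knockdown arrays lay close together, unlike those of the metallothioneins. A second SLC30A1 probe changed by -1.76 (SE 0.17, adjusted p = 1.20e-07 over probes, of which 21.3% were called). In the deposited log2 matrix the first probe gave -0.58 (adjusted p = 1.16e-04).

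In LNCaP, SLC30A1 stood at 5.37, 5.96 and 5.02 without and 6.15, 6.02 and 6.51 with Dox, a rise of 0.78 (SE 0.19, adjusted p = 0.00503). Its second probe rose by 0.72 (adjusted p = 0.00410 over probes, of which 26.6% were called). In 22Rv1 the levels were 7.00, 7.18 and 7.14 without and 6.29, 6.77 and 6.29 with Dox, a fall of 0.66 (SE 0.19, adjusted p = 0.0143). The second probe gave -0.47 and was not called there (adjusted p = 0.0514 over probes, where 22.3% of 18408 probes were called), and the first lost its call without 22Rv1 replicate 2 or Dox replicate 1. Between the lines the SLC30A1 response to Dox differed by -1.43 (SE 0.27, adjusted p = 6.98e-04), and by -1.19 for the second probe (adjusted p = 0.00154).

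**Figure D3:**
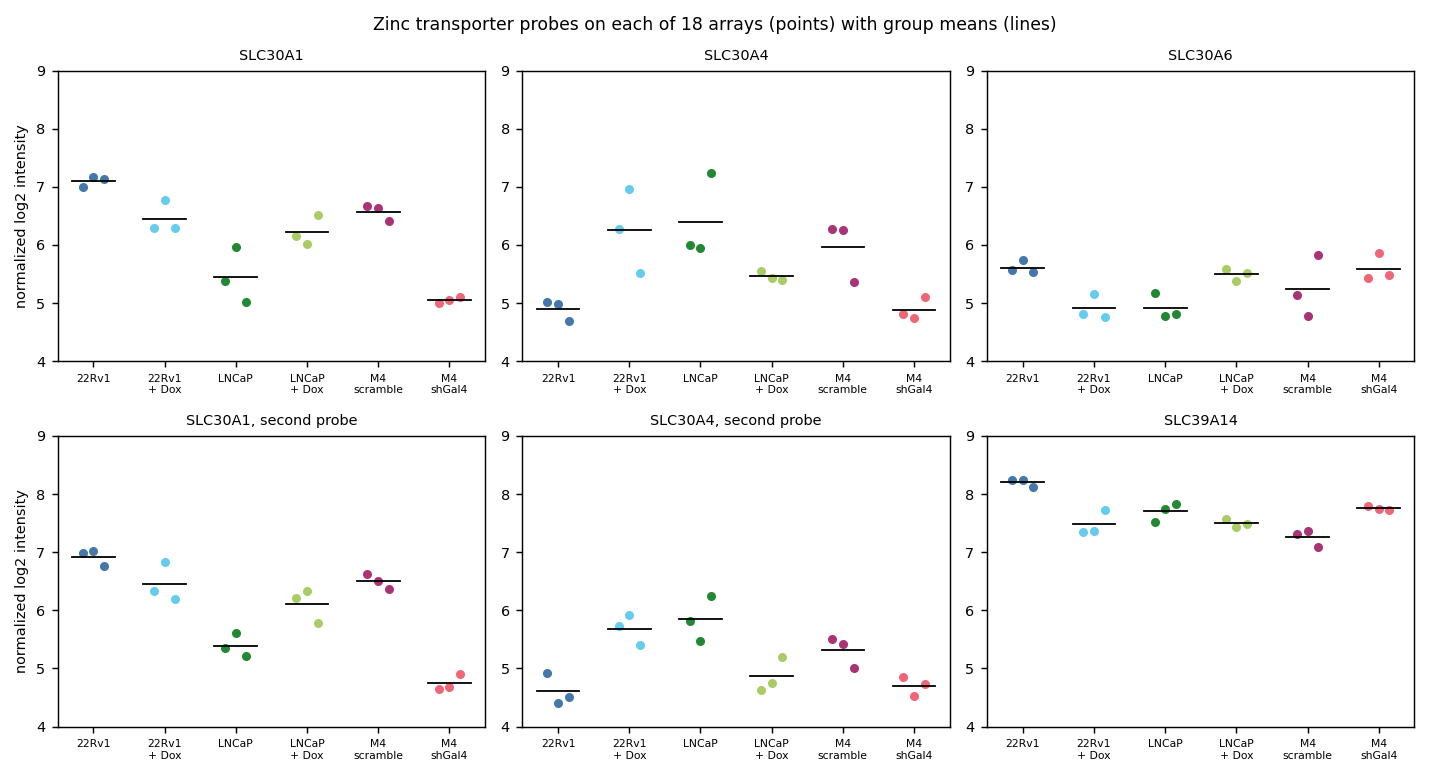
Normalized log2 intensity (y axis) on each of 18 arrays (points) in 6 groups (x axis) for SLC30A1 and SLC30A4 with both of their probes, SLC30A6 and SLC39A14, with group means as lines. SLC30A1 has its lowest group mean in the M4 knockdown, where LNCaP replicate 3 of the first probe lies among the knockdown arrays, and SLC30A4 moves in opposite directions with Dox in 22Rv1 and LNCaP for both probes.

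SLC30A4, which loads zinc into endosomes and vesicles, moved opposite to SLC30A1 with Dox in each line. In 22Rv1 it stood at 5.01, 4.99 and 4.68 without and 6.28, 6.97 and 5.53 with Dox, a rise of 1.36 (SE 0.32, adjusted p = 0.00305). In LNCaP it stood at 6.01, 5.95 and 7.23 without and 5.55, 5.43 and 5.40 with Dox, a fall of 0.94 (SE 0.32, adjusted p = 0.0311). The arrays did not overlap in either line, although LNCaP replicate 3 and the 22Rv1 Dox group were uneven. Its second probe changed by 1.07 and -0.98 (adjusted p = 5.67e-04 and 0.00149 over probes).

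The LNCaP call of the first SLC30A4 probe was lost without LNCaP replicate 3 or any Dox replicate. The difference between the lines was 2.30 (SE 0.45, adjusted p = 9.75e-04), and 2.05 for the second probe (adjusted p = 3.89e-05). In M4 cells SLC30A4 stood at 6.27, 6.26 and 5.36 with scramble and 4.81, 4.74 and 5.10 with the knockdown, a fall of 1.08 (SE 0.32, adjusted p = 0.0161). Scramble replicate 3 came close to the knockdown arrays. In the deposited log2 matrix SLC30A4 gave 0.50 in 22Rv1 (adjusted p = 0.0342), and was not called in LNCaP (-0.41, adjusted p = 0.0768) or M4 (-0.37, adjusted p = 0.124). Leaving out scramble replicates 1 or 2 or knockdown replicates 1 or 2 ended this call, and the second probe fell by 0.61 (adjusted p = 0.0348 over probes).

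SLC30A5 and SLC30A6 form a heterodimer that supplies zinc to enzymes of the secretory pathway. SLC30A6 fell by 0.70 in 22Rv1 with Dox (SE 0.20, adjusted p = 0.0130), from 5.57, 5.74 and 5.53 to 4.82, 5.16 and 4.76. It rose by 0.57 in LNCaP (SE 0.20, adjusted p = 0.0366), from 5.17, 4.79 and 4.81 to 5.59, 5.38 and 5.52. The difference of -1.27 between the lines was called (SE 0.28, adjusted p = 0.00297), but a dimmer second probe gave 0.11, 0.41 and -0.30 and was called in none of these 3 tests (adjusted p = 0.695, 0.0720 and 0.432 over probes). The 22Rv1 call was lost without 22Rv1 replicate 2 or Dox replicate 1, and the LNCaP call without LNCaP replicates 2 or 3 or any Dox replicate. SLC30A5 had a change of 0.41 in the knockdown (SE 0.13, adjusted p = 0.0270), a call that was lost without scramble replicates 2 or 3 or knockdown replicates 2 or 3 and with the mean of its probes (0.14, adjusted p = 0.364). Its 3 other probes disagreed with it and with each other. In the knockdown 1 rose by 0.49 and the others, at -0.09 and -0.24, were not called. With Dox 2 of them rose in 22Rv1, by 0.40 and 0.41, and 1 in LNCaP, by 0.42, where the first probe was not called.

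SLC30A7, which supplies zinc to the Golgi, fell by 0.55 in LNCaP with Dox (SE 0.16, adjusted p = 0.0150), from 7.80, 8.07 and 8.04 to 7.42, 7.31 and 7.51. That call was lost without LNCaP replicate 2 or Dox replicate 2. SLC30A9, a mitochondrial zinc transporter, fell by 0.61 in the knockdown (SE 0.16, adjusted p = 0.00816), from 10.08, 10.07 and 10.30 to 9.36, 9.48 and 9.79, and without knockdown replicate 1 its adjusted p was 0.0522. Both genes were higher on all control arrays than on any treated array. SLC30A3, an exporter outside the 30 genes, changed by -0.08 to 0.24 and was called in none of the 3 comparisons.

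Among the importers changes in the 3 comparisons lay between -0.72 and 0.67. SLC39A14, which carries zinc, manganese and iron released from transferrin, fell with Dox in 22Rv1 and rose in the knockdown. It stood at 8.24, 8.24 and 8.13 in 22Rv1 and 7.35, 7.36 and 7.72 with Dox, which is a difference of -0.72 (SE 0.13, adjusted p = 3.26e-04). In M4 it stood at 7.32, 7.37 and 7.09 with scramble and 7.79, 7.74 and 7.73 with the knockdown, which is a difference of 0.50 (SE 0.13, adjusted p = 0.00797). Neither pair of groups overlapped, and the rise in M4 was not called with median scaling (0.42, adjusted p = 0.191).

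SLC39A6 and SLC39A10 are related importers of the plasma membrane that can form a complex. SLC39A6 rose by 0.65 in LNCaP with Dox (SE 0.16, adjusted p = 0.00609), from 7.52, 7.77 and 7.56 to 8.16, 8.30 and 8.35. In the knockdown it rose by 0.61 (SE 0.16, adjusted p = 0.00978), from 7.51, 7.82 and 7.91 to 8.60, 8.47 and 7.99, and this call was lost without scramble replicate 1 or knockdown replicate 1. Its second probe changed by 0.39 in LNCaP and 0.47 in the knockdown and was called in neither (adjusted p = 0.123 and 0.0750 over probes). SLC39A10 rose by 0.67 in LNCaP (SE 0.17, adjusted p = 0.00690), from 6.61, 7.05 and 6.39 to 7.33, 7.43 and 7.31, and overlapped between the M4 groups.

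SLC39A1, a main zinc uptake protein of prostate cells, rose by 0.44 in the knockdown (SE 0.12, adjusted p = 0.0123), from 10.62, 10.35 and 10.39 to 10.94, 10.87 and 10.88. It was not called with Dox in 22Rv1 (-0.18, adjusted p = 0.316) or LNCaP (-0.12, adjusted p = 0.508), and without scramble replicate 2 the rise in M4 was not called. SLC39A11, a Golgi importer, fell by 0.66 in the knockdown (SE 0.14, adjusted p = 0.00172), from 6.79, 6.94 and 6.91 to 6.14, 6.30 and 6.20. The M4 groups of SLC39A11 lay clearly apart and the Dox groups of both lines overlapped.

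SLC39A8, which carries zinc and manganese, was called higher with Dox in both lines, by 0.45 in 22Rv1 (SE 0.13, adjusted p = 0.0179) and 0.36 in LNCaP (SE 0.13, adjusted p = 0.0498). Its second probe rose by 0.52 and 0.64. The 22Rv1 call was lost without 22Rv1 replicate 2 or Dox replicate 2, and the LNCaP call without any array but LNCaP replicate 2. SLC39A3 fell by 0.42 in 22Rv1 with Dox (SE 0.13, adjusted p = 0.0264), while its 2 other probes changed by 0.28 and -0.78, and SLC39A3 lost this call without 22Rv1 replicates 2 or 3 or Dox replicates 1 or 2. SLC39A4, SLC39A7 and SLC39A9 were called in none of the 3 comparisons, with changes between -0.37 and 0.32.

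Groups without Dox or knockdown also differed in these genes. Both M4 groups differ from 22Rv1 in construct as well as in cells, and these cannot be told apart here. LGALS4 itself was higher by 6.54 in M4 scramble than in 22Rv1 (adjusted p = 2.41e-15 by limma). Between 22Rv1 and M4 scramble cells 10 of the 25 genes were called, 6 higher and 4 lower in M4, where 35.4% of all genes were called (14.7% higher and 20.7% lower). MT1E was higher in M4 scramble by 0.96 (SE 0.26, adjusted p = 0.00678), MT1H by 1.04 (SE 0.27, adjusted p = 0.00436) and MT2A by 1.76 (SE 0.44, adjusted p = 0.00362). MT3 was at least 4.39-fold higher and SLC30A4 was higher by 1.07. SLC39A14 was lower by 0.94 (SE 0.13, adjusted p = 1.02e-05) and SLC30A1 by 0.54 (SE 0.19, adjusted p = 0.0310). MT1M was called higher by 1.64, although scramble replicate 3 lay under all 22Rv1 arrays, and without that array the difference was 2.85 (adjusted p = 1.18e-12). Its call was lost under 8 of 15 alternatives, with adjusted p up to 0.178. The calls of SLC30A1 and SLC30A4 were each lost under 5 of 16. A second SLC30A1 probe gave -0.42 and was not called (adjusted p = 0.0627 over probes).

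M4 cells with the knockdown held less metallothionein transcript than 22Rv1 cells did. All but MT3 of the 8 metallothioneins were lower than in 22Rv1, 6 of them by 2.88 to 4.99 and MT1M at least 2.98-fold (15 of the 25 genes called, 4 higher and 11 lower, where 11.7% of all genes were called higher and 15.3% lower). MT1G was lower by 4.99 (SE 0.40, adjusted p = 5.72e-09) and MT2A by 2.88 (SE 0.44, adjusted p = 4.20e-05). SLC30A1 was lower by 2.05 (SE 0.19, adjusted p = 4.53e-08). SLC30A4 stood at the level of 22Rv1 within the spread (-0.02, adjusted p = 0.982, 95% interval -0.67 to 0.64). In this comparison 43.4% of called genes were higher, and 22.7% with median scaling.

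Between LNCaP and 22Rv1 without Dox 18 of the 25 genes were called, 7 higher and 11 lower in LNCaP, where 50.3% of all genes were (23.7% higher and 26.6% lower). Metallothioneins went in both directions. MT1E was lower in LNCaP by 2.77 (SE 0.26, adjusted p = 1.19e-08), MT1G by 2.18 (SE 0.40, adjusted p = 1.03e-04), MT1H by 1.77 (SE 0.27, adjusted p = 8.62e-06) and MT1M at least 2.99-fold. MT1X was higher by 2.04 (SE 0.43, adjusted p = 4.71e-04) and MT2A by 1.41 (SE 0.44, adjusted p = 0.0106). SLC30A1 was lower by 1.66 (SE 0.19, adjusted p = 2.08e-07) and SLC39A1 by 0.94 (SE 0.12, adjusted p = 1.54e-06), while SLC30A4 was higher by 1.50 and SLC30A5 by 0.87. In the deposited log2 matrix MT1M was not called against 22Rv1 in LNCaP (adjusted p = 0.154) or in M4 with the knockdown (adjusted p = 0.227), nor was SLC30A4 in M4 scramble (adjusted p = 0.101). Of the called genes 47.1% were higher, and 34.2% with median scaling.

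**Figure D4:**
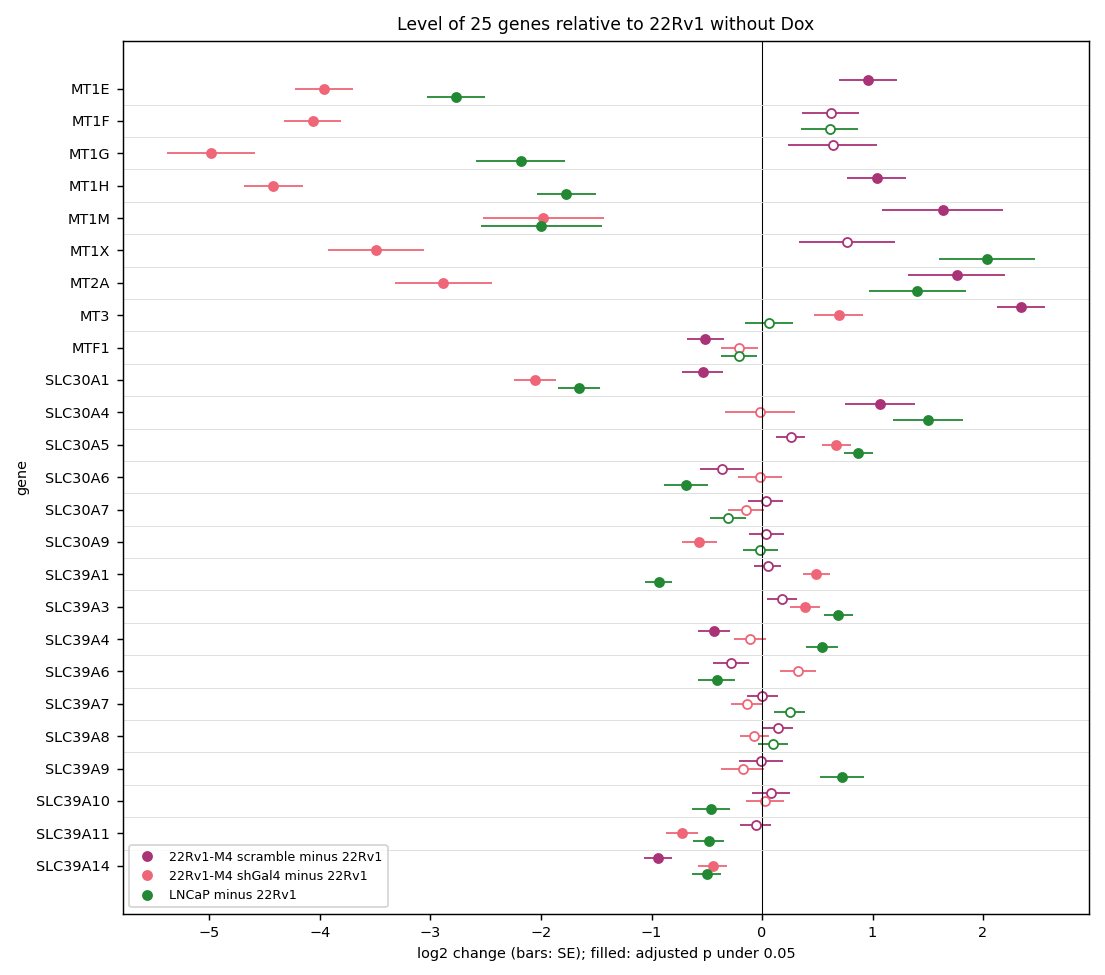
Log2 difference from 22Rv1 without Dox (x axis) of each of 25 genes (y axis) in M4 scramble, M4 shGal4 and LNCaP without Dox, with bars of 1 SE and filled points at an adjusted p under 0.05. The 3 sets share the 22Rv1 arrays, and MT1E and MT1H are higher in M4 scramble and lower in LNCaP and M4 shGal4.

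Taking all groups in order, MT1G was highest in M4 scramble (12.03 ± 0.35, SD, n = 3), followed by 22Rv1 (11.38 ± 0.10), LNCaP (9.20 ± 0.10), 22Rv1 with Dox (8.72 ± 0.23), LNCaP with Dox (8.14 ± 0.05) and the M4 knockdown (6.40 ± 1.47). Arrays of the last 2 groups overlapped. MT2A ran from M4 scramble (11.85 ± 0.20) through LNCaP (11.49 ± 0.15), LNCaP with Dox (10.25 ± 0.18), 22Rv1 (10.09 ± 0.05) and 22Rv1 with Dox (9.56 ± 0.28) to the knockdown (7.20 ± 1.63). Here LNCaP overlapped with M4 scramble, and LNCaP with Dox overlapped with 22Rv1. For both genes the M4 line thus held the highest and the lowest group mean.

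Genes of copper and iron handling were read beside them. Of 14 copper genes 1 was called higher and 1 lower in 22Rv1 with Dox, 3 and 3 in LNCaP with Dox, and 1 and 1 in the knockdown, where 24.8%, 27.8% and 23.3% of all genes were called. STEAP2, a metal reductase, fell by 1.04 in 22Rv1 with Dox (SE 0.17, adjusted p = 1.24e-04), and LOX, a copper-dependent enzyme that crosslinks collagen, fell by 1.15 in LNCaP with Dox (SE 0.17, adjusted p = 1.53e-04). ATP7B, a copper-exporting pump, fell by 0.84 in the knockdown (SE 0.16, adjusted p = 7.79e-04). Of 13 iron genes 5 were lower and 0 higher in 22Rv1 with Dox, 4 and 1 in LNCaP, and 4 and 3 in the knockdown, against 15.7%, 17.0% and 10.3% of all genes lower and 9.14%, 10.9% and 13.0% higher. SLC40A1, the iron exporter ferroportin, fell by 1.44 in 22Rv1 with Dox (SE 0.16, adjusted p = 1.12e-06) and by 1.48 in the knockdown (SE 0.16, adjusted p = 5.38e-07). TFRC, the transferrin receptor, was one of the 39 genes called lower in all 3 comparisons, by 0.48, 0.57 and 0.53 in 22Rv1, LNCaP and M4.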

How the data were processed

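Total RNA of 18 samples (6 groups of 3, grouped by their titles) was read on Illumina bead arrays, with biotin-labelled cRNA per the labels' protocols. The sources used here name neither scanner nor software. One table the authors deposited was non-normalized, with a linear intensity and a detection p-value for each of 47303 probes. No background had been subtracted, since the lowest intensity per array was 83.7 to 90.9. A deposited log2 matrix, within 0.01 of quantile-normalized log2 intensity for all but 114 of 851454 values, was kept for comparison.

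Background correction and normalization of the intensities used neqc (offset 16) in limma 3.58.1 (R 4.3.3, statmod 1.5.0). The offset shrinks changes of dim probes, and the deposited matrix gave smaller metallothionein falls in the knockdown. Of the probes, 30103 carried 1 symbol, 8 several and 17192 none. The filter required detection (p under 0.05) on 3 or more arrays, which 25675 probes passed, 18408 of them named, and the probe with the highest mean stood for each of 13680 genes. Other probes come from a fit across the 18408 probes. A limma model of 6 group means (12 residual degrees of freedom, prior 8.73) gave 7 contrasts, two-sided, adjusted by Benjamini-Hochberg over all genes. A bound compares a group mean with the lowest level above background where no array of the other group was above it. Precision is limited by how many arrays there are.

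The genes and lists were chosen with earlier results of these data known. Any of the 25 genes could be named, beside LGALS4, up to 4 called genes with the largest change per comparison from each of the copper, iron, heat shock and glucocorticoid lists, and KLK3. Promoters are from RefSeq GRCh38.p14. Alternatives were the deposited matrix, median scaling, 2 other detection filters, mean of probes, all probes, only the arrays compared, array weights, a replicate block, each array left out and, added after seeing the data, the within-group axis as a covariate.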

Additional observations from a re-analysis of the deposited data

Results flagged for a closer look

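The Dox response differed between 22Rv1 and LNCaP by the interaction test for 6 of the 25 genes, where it differed for 18.8% of all genes. The response of 22Rv1 minus that of LNCaP was 2.47 on the log2 scale for MT3 (adjusted p = 1.03e-05 by limma), a fitted value with no exact size, since 22Rv1 without Dox and LNCaP with Dox had 0 of 3 arrays above background. It was 2.30 for SLC30A4 (adjusted p = 9.75e-04), from 1.36 and -0.94, and -1.43 for SLC30A1 (adjusted p = 6.98e-04), from -0.66 and 0.78. For SLC30A6 it was -1.27 (adjusted p = 0.00297), from -0.70 and 0.57, with no call for its second probe. MT1H fell in both lines, more in 22Rv1, by a difference of -1.32 (adjusted p = 0.0173). These 5 differences were called under all 22 alternatives run for them, with the highest adjusted p at 0.0466 for MT1H. SLC30A7 differed by 0.67 (adjusted p = 0.0467) and lost the call under 16 of 22 alternatives, among them leaving out any of 10 arrays. Among all called genes 50.1% had the higher response in 22Rv1, and 38.5% with median scaling.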

How the results depend on the processing

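No called change of the 25 genes turned its sign under any alternative. The knockdown calls of all 8 metallothioneins, SLC30A1 and SLC39A11 (10 of 16) held under every alternative, as did 7 of 14 calls in 22Rv1 with Dox (MT1E, MT1F, MT1G, MT1H, MT3, SLC30A4 and SLC39A14) and 0 of 11 in LNCaP with Dox. In LNCaP the calls of MT1F, MT1H, SLC30A1 and SLC39A10 were lost only in the fit with the within-group axis. Median scaling left 2 of 4 metallothioneins, 3 of 7 zinc transporters and 2213 of 3809 genes called in LNCaP with Dox, 4 of 8 zinc transporters and 1926 of 3193 genes in the knockdown, and 1707 of 2572 genes for the difference between the Dox responses. It moved the median of all genes by -0.12 in 22Rv1 with Dox, -0.16 in LNCaP against 22Rv1 and -0.14 in M4 shGal4 against 22Rv1. Without a detection filter 2 metallothioneins were called in LNCaP with Dox. Metallothioneins called for the difference between the Dox responses went from 2 to 4 in the deposited matrix, 7 with only the arrays compared, 5 with array weights and 4 with the within-group axis. Array weights called 6582 genes in 22Rv1 with Dox (3394 without), 4921 in the knockdown, 4673 for the difference, 6005 in M4 shGal4 against 22Rv1 (3690 without), and 7 zinc transporters for the difference and 7 in M4 scramble against 22Rv1 (4 without in each). With the axis 0 metallothioneins, 0 zinc transporters and 243 genes were called in LNCaP with Dox, and 2 zinc transporters and 2558 of 4849 genes in M4 scramble against 22Rv1. The LNCaP groups lie apart on that axis, so this fit has wider errors there by construction. The cause of the other shifts was not tested.

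Leaving out 1 array gave 2 to 7 zinc transporters in 22Rv1 with Dox (2 without 22Rv1 replicate 2, 3 without Dox replicate 1). In LNCaP with Dox it gave 2 to 3 metallothioneins and 3 to 7 zinc transporters (3 without Dox replicate 2). The knockdown gave 8 metallothioneins each time and 5 to 9 zinc transporters (5 without scramble replicate 2 or knockdown replicate 1). The difference between the Dox responses gave 2 to 4 metallothioneins (4 without 22Rv1 Dox replicate 2), and M4 scramble against 22Rv1 gave 1 to 4 zinc transporters (1 without 22Rv1 replicate 3). Deviations of same-numbered arrays correlated between -0.11 and 0.11. With 3 arrays a group, these values cannot tell whether same-numbered arrays share more than a number. With the replicate block 7, 3 and 8 metallothioneins and 6, 5 and 8 zinc transporters were called in 22Rv1 with Dox, LNCaP with Dox and the knockdown.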

Other observations

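Heat shock and glucocorticoid-inducible genes were read because metals and glucocorticoids both raise metallothionein transcripts in many cells. Of 15 genes of the metal and heat shock list 5 were higher and 1 lower in the knockdown, where 13.0% of all genes were higher and 10.3% lower, with a median log2 change of 0.31. BAG3, a co-chaperone, rose there by 1.16 (SE 0.18, adjusted p = 6.48e-05 by limma), the small heat shock protein HSPB1 by 0.77 and HSPA1B by 0.71. In LNCaP with Dox BAG3 fell by 0.66 and HSPB1 by 0.73, among 2 lower and 1 higher genes of the list. In 22Rv1 with Dox 1 gene was higher and 2 lower, with GCLM, a subunit of the enzyme that begins glutathione synthesis, higher by 1.76 (SE 0.32, adjusted p = 4.01e-04) and HSPA8 lower by 0.69.

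Of 14 glucocorticoid-inducible genes 4 were higher and 3 lower in 22Rv1 with Dox, 1 and 2 in LNCaP with Dox, and 3 and 1 in the knockdown, where 24.8%, 27.8% and 23.3% of all genes were called in either direction. TSC22D3, which encodes the leucine zipper protein GILZ, rose by 2.09 in 22Rv1 with Dox (SE 0.14, adjusted p = 8.19e-10), from 7.77, 7.60 and 7.71 to 9.87, 9.53 and 9.96. FKBP5, a chaperone that binds steroid receptors, rose by 1.15 in 22Rv1 with Dox, fell by 0.56 in LNCaP with Dox and fell by 1.07 in the knockdown. PDK4, a kinase that restrains pyruvate oxidation, fell by 1.17 in 22Rv1 with Dox and rose by 1.89 in the knockdown. Both lists hold members that moved against each other in the same comparison.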
